A study of Mus musculus with 8 samples.

Results

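Liver progenitor cells that had been stimulated with hepatocyte growth factor (HGF) for 6 h were compared with the same cells stimulated for 1 h, to describe the change from the early to the delayed part of the response. The cells were MLP-29, a mouse liver progenitor cell line, so every array reports on a single line and on no other liver cell. The comparison used 4 of the 8 arrays of the series: HGF 6h replicates a and b, and HGF 1h replicates a and b. The other 4 arrays held cells in control medium and cells given HGF for 24 h, also as replicates a and b, and they entered the fit for its estimate of spread and are given as context. All cells, control cells included, had been starved gradually over a week and were then kept in low serum with recombinant HGF or control medium, and the labels say that cultures of every time point were lysed together. The time course was carried out on 2 occasions to give the biological replicates. The control is a single group with no duration of its own in the labels.

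HGF is the ligand of Met, a receptor tyrosine kinase of epithelial cells that signals through Ras and the MAP kinase ERK, through PI3 kinase and through other routes. Growth factors of this kind are known to switch on immediate early genes, which need no new protein to be transcribed and whose transcripts are short-lived, and later a set of delayed genes that includes proteases, adhesion molecules and growth genes. In liver epithelium HGF is known for promoting growth, cell scattering and branching.

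Each value is a log2 intensity of 1 array after background correction and normalization between arrays, on which a difference of 1 is a 2-fold change. A difference is the mean of the 2 HGF 6 h arrays minus the mean of the 2 HGF 1 h arrays, with its standard error (SE) from the limma fit over all 8 arrays, and genes with a p under 0.05 after Benjamini-Hochberg adjustment were called. A gene entered the test if it was detected (detection p under 0.05) on both HGF 6 h arrays or on both HGF 1 h arrays, which held for 7969 of the 16593 named genes. The 4 arrays were alike in quality: the median raw signal was 133.8 and 125.3 intensity units at 6 h, against 123.2 and 124.5 at 1 h, and the whole series had 11569 to 11893 of 25697 probes detected per array. Across genes, arrays of the same time correlated at 0.990 (6 h) and 0.991 (1 h), and arrays of different times at 0.963 to 0.971. Of 9 progenitor and biliary epithelium markers on the array, 8 were detected at both times, among them the keratins Krt7, Krt8, Krt18 and Krt19, and Prom1 was detected on none of the 4 arrays. Of 10 hepatocyte, 6 endothelial and 8 stellate cell markers, none was detected on both arrays of either time, Alb, Pecam1 and Col1a1 included.

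At 6 h of HGF against 1 h, 1480 genes were called (18.6% of those tested), 709 of them higher at 6 h (8.9%) and 771 lower at 6 h (9.67%). Of these, 158 were higher by at least 2-fold (1.98%) and 271 lower by at least 2-fold (3.4%). The median difference was 0.01 over all genes tested, 0.71 over the genes called higher and -0.80 over those called lower. Both 6 h arrays lay beyond both 1 h arrays in every called gene, and in the rest of the genes tested as well this was frequent: 32.15% of all genes tested had both 6 h arrays above and 29.13% had both below. The difference between times within replicate a correlated with that within replicate b at r = 0.831 (Spearman correlation 0.744) across the 7969 genes, which share their 4 arrays and are not independent replicates. When arrays were scaled to a common median in place of quantile normalization, 268 genes were called higher and 470 lower, so that 36.31% of the calls were higher, against 47.91% in the quantile-normalized values. With any 1 of the 4 arrays left out, 277 to 312 genes were called higher and 316 to 404 lower. RNA was measured in bulk, so that fewer cells of a kind and less RNA per cell cannot be told apart.

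**Figure D1:**
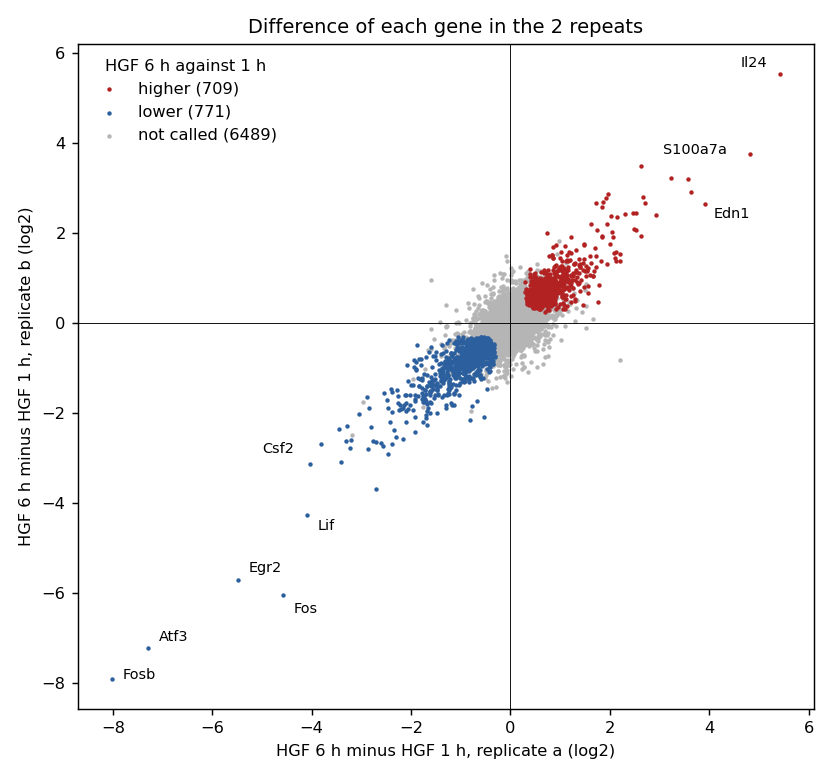
The difference HGF 6 h minus HGF 1 h (log2) of each of 7969 genes in replicate a (horizontal axis) and in replicate b (vertical axis); points are genes, coloured as called higher (709), called lower (771) or not called (6489). The immediate early genes Fosb, Atf3, Egr2 and Fos lie far out at the lower left and Il24 at the upper right, each with the same direction in both replicates.

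Most of the immediate early transcription factors were lower at 6 h. Of 26 measured members, 18 (69.23%) were called lower at 6 h, against 9.67% of all genes tested, and 0 higher. The median difference was -1.40, and 25 of the 26 had a negative difference. Fosb, an AP-1 subunit, had log2 intensities of 6.48 and 6.37 at 6 h, against 14.50 and 14.26 at 1 h. Fos, another AP-1 subunit, had 9.01 and 7.88 at 6 h, against 13.59 and 13.92 at 1 h. Egr2, a zinc finger transcription factor, had 7.54 and 7.39 at 6 h, against 13.03 and 13.09 at 1 h. In all of these the 1 h arrays stood high and the 6 h arrays low, and the groups were far apart. The differences were -7.96 ± 0.30 (adjusted p = 2.96e-05) for Fosb, -5.31 ± 0.44 (adjusted p = 0.000626) for Fos and -5.59 ± 0.14 (adjusted p = 2.76e-06) for Egr2. Atf3, a stress-induced transcription factor of the ATF family, had 5.21 and 5.29 at 6 h, against 12.51 and 12.51 at 1 h. Both 6 h arrays were at background, so Atf3 was at least 97.2-fold lower at 6 h (-7.26 ± 0.48, adjusted p = 0.000263). Atf3 passed the detection filter only through its 1 h arrays, so that its direction was fixed by that filter.

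The fall did not end at the same place for every member. Mean log2 intensity of Fosb was 6.02 in control medium, 14.38 at 1 h, 6.42 at 6 h and 5.88 at 24 h, and that of Egr2 was 5.32 in control medium, 13.06 at 1 h, 7.47 at 6 h and 5.46 at 24 h. Atf3 averaged 7.42 in control medium, 12.51 at 1 h, 5.25 at 6 h and 7.79 at 24 h, so that its 6 h arrays were the lowest of the series. Egr1, the best known member of the Egr family, remained bright at 6 h, with 12.91 and 12.66 at 6 h, against 15.29 and 15.35 at 1 h (-2.53 ± 0.22, adjusted p = 0.000825). Junb had 11.88 and 11.86 at 6 h, against 13.37 and 13.86 at 1 h (-1.74 ± 0.23, adjusted p = 0.00316). Cebpb, a C/EBP transcription factor, had 13.24 and 13.32 at 6 h, against 14.63 and 14.59 at 1 h (-1.33 ± 0.12, adjusted p = 0.000818). Both 6 h arrays of these genes lay below both 1 h arrays. Jun, the AP-1 partner of Fos, had 7.58 and 8.09 at 6 h, against 8.91 and 9.68 at 1 h (-1.46 ± 0.29, adjusted p = 0.0143), and its call was lost without HGF 6 h replicate a or HGF 1 h replicate b (adjusted p up to 0.074). Fosl1, an AP-1 subunit that is known to accumulate later than Fos, was not called, with 10.22 and 10.36 at 6 h, against 10.95 and 10.69 at 1 h (-0.53 ± 0.21, adjusted p = 0.122). Myc had 8.02 and 8.43 at 6 h, against 8.69 and 8.90 at 1 h, and its difference of -0.57 ± 0.22 was not called (adjusted p = 0.112) but was called when the letter of the replicate was a block (adjusted p = 0.0142).

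**Figure D2:**
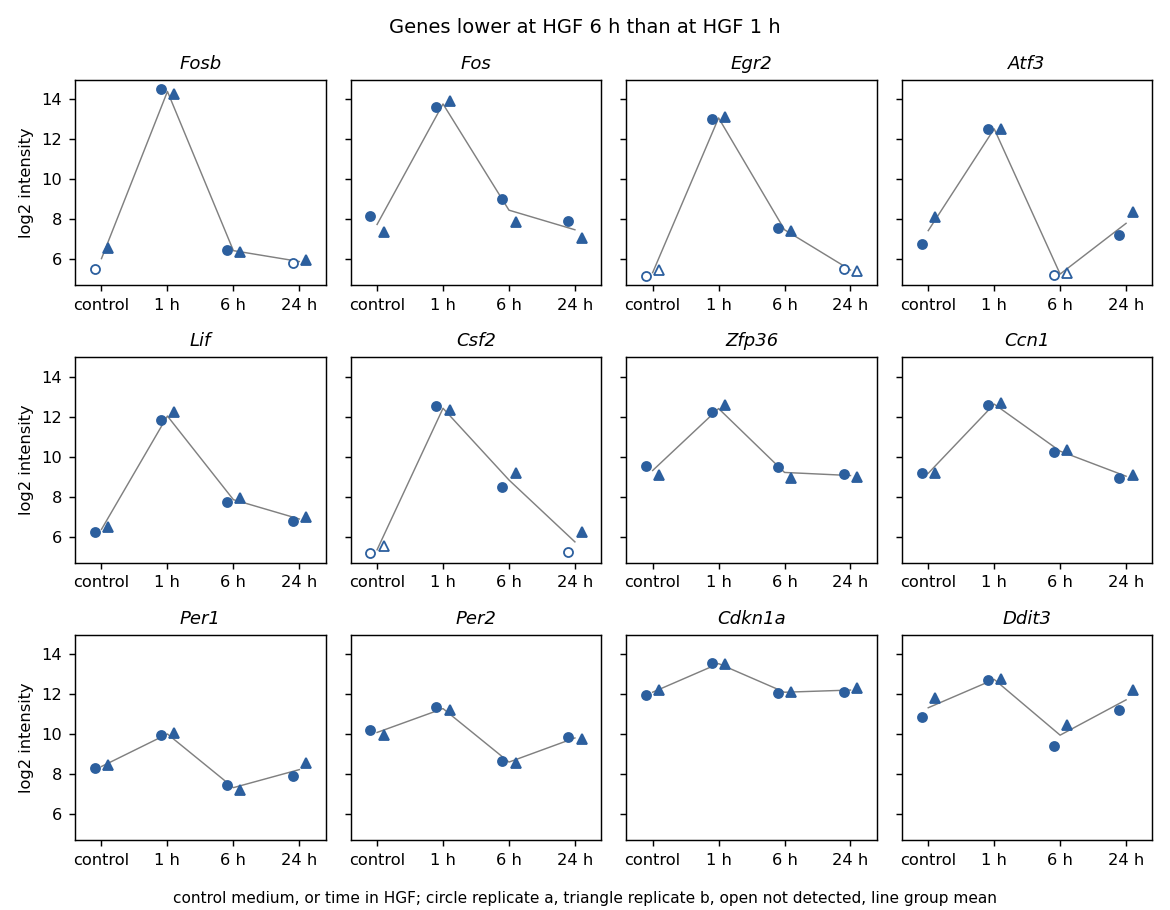
Log2 intensity (vertical axis) of 12 genes called lower at HGF 6 h than at HGF 1 h, in control medium and after 1, 6 and 24 h of HGF (horizontal axis); circles are replicate a, triangles replicate b, open symbols arrays on which the gene was not detected, and lines join the means of 2 arrays. Both 1 h arrays lie above both 6 h arrays in each of them, and the 6 h arrays of Atf3 lie below its control arrays.

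Transcripts of mRNA decay factors and of MAP kinase feedback genes, which limit growth factor signals, were measured beside them. Among decay and post-transcriptional regulators, 41.67% were called lower, against 9.67% of all genes tested. Of 12 decay and post-transcriptional regulators, 5 were called lower and 0 higher (median difference -0.33), and 3 were called lower when any 1 of the 4 arrays was left out. Zfp36, which binds AU-rich elements and speeds the decay of cytokine and immediate early transcripts, had 9.50 and 8.92 at 6 h, against 12.21 and 12.59 at 1 h. Tob1, an antiproliferative factor that recruits deadenylases, had 10.61 and 10.72 at 6 h, against 12.57 and 12.65 at 1 h. Zfp36l1, a relative of Zfp36, had 13.52 and 13.35 at 6 h, against 14.57 and 14.72 at 1 h. The 6 h arrays were the lower ones in all of these, without overlap, with differences of -3.19 ± 0.24 (adjusted p = 0.000531) for Zfp36, -1.95 ± 0.12 (adjusted p = 0.000194) for Tob1 and -1.21 ± 0.15 (adjusted p = 0.00222) for Zfp36l1.

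Serum response elements, called CArG boxes, are bound by the serum response factor, a regulator of immediate early genes. They were looked for on both strands in the 300 bases around each gene's start (250 before and 50 after) as given by RefSeq for mouse build GRCm38.p6, which matched 6546 of the genes tested. The promoters of Egr2 and Zfp36, among the steepest falls, are shown with the CArG box in capitals, 72 bases before the start in Egr2 and 58 in Zfp36. Of the 5 promoter windows listed for Egr2, 4 held a CArG box, not all of them the one printed.
Egr2 (chr10:67537316-67537615, plus strand): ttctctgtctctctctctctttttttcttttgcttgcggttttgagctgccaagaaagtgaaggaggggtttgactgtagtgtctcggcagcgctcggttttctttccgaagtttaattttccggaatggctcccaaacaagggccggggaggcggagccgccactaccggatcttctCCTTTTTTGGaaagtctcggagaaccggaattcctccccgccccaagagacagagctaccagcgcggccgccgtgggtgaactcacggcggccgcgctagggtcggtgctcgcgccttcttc
Zfp36 (chr7:28379179-28379478, minus strand): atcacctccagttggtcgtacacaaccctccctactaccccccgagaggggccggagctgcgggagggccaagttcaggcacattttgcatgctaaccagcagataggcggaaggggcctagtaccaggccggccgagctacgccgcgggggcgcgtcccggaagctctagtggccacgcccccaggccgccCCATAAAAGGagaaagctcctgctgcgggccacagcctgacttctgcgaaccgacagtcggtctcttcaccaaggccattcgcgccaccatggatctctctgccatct
Of the genes lower by at least 2-fold with a promoter sequence, 3.56% held a CArG box, against 1.68% of all genes tested and 1.63% of all 32851 promoters. For every motif, a gene was counted if any of its windows held it, whereas the share of all promoters was counted per window. Among the immediate early transcription factors called lower, 1 of 16 with a promoter sequence held one, and that was Egr2. A match of letters is a description of the window and not of a bound site.

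MAP kinase feedback genes moved in both directions. The shares called were 36.36% lower, against 9.67% of all genes tested, and 18.18% higher, against 8.9%. Of 22 measured, 8 were called lower and 4 higher, and 5 to 7 were called lower when any 1 of the 4 arrays was left out. Dusp6, a phosphatase that inactivates ERK in the cytoplasm, had 12.38 and 12.68 at 6 h, against 14.15 and 14.36 at 1 h. Errfi1, an inhibitor of EGF receptor family kinases, had 14.02 and 14.03 at 6 h, against 15.59 and 15.41 at 1 h. Both genes were lower at 6 h. Dusp8, a phosphatase of the stress kinase JNK, had 6.74 and 7.01 at 6 h, against 9.04 and 9.54 at 1 h. Dusp16 had 8.86 and 9.01 at 6 h, against 10.53 and 10.91 at 1 h. Phlda1, a pleckstrin homology domain protein, had 12.13 and 12.28 at 6 h, against 13.92 and 13.73 at 1 h. All of these were lower at 6 h without overlap, with differences of -1.73 ± 0.27 (adjusted p = 0.00611) for Dusp6, -1.48 ± 0.16 (adjusted p = 0.00163) for Errfi1, -2.42 ± 0.31 (adjusted p = 0.00264) for Dusp8, -1.78 ± 0.21 (adjusted p = 0.00199) for Dusp16 and -1.62 ± 0.12 (adjusted p = 0.000531) for Phlda1. Other members of the same phosphatase family were higher at 6 h: Dusp14 had 10.17 and 10.16 at 6 h, against 8.63 and 8.98 at 1 h (1.36 ± 0.14, adjusted p = 0.00153) and Dusp10 had 10.09 and 9.88 at 6 h, against 9.02 and 9.09 at 1 h (0.93 ± 0.13, adjusted p = 0.00428). Etv4, an ETS transcription factor induced by ERK, had 6.97 and 7.12 at 6 h, against 5.74 and 5.21 at 1 h. It was detected on both 6 h arrays and on no 1 h array, so that its direction was fixed by the detection filter. It was at least 2.32-fold higher at 6 h (adjusted p = 0.00538). Spry4, a Sprouty inhibitor of receptor tyrosine kinase signals, was not called, with 5.99 and 5.26 at 6 h, against 6.06 and 6.30 at 1 h (-0.55 ± 0.27, adjusted p = 0.187).

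Cytokines, chemokines and other NF-kB targets were mostly lower at 6 h, with 2 steep exceptions. The share called lower was 56.67%, against 9.67% of all genes tested. The share called higher was 10%, near the 8.9% of all genes tested. Of 30 measured members, 17 were called lower and 3 higher (median difference -0.74), and 11 were called lower without HGF 6 h replicate a and likewise without HGF 1 h replicate a. Lif, a cytokine of the interleukin 6 family, had 7.75 and 7.95 at 6 h, against 11.85 and 12.21 at 1 h (-4.18 ± 0.17, adjusted p = 3.81e-05). Csf2, which encodes the growth factor GM-CSF, had 8.48 and 9.18 at 6 h, against 12.52 and 12.31 at 1 h (-3.58 ± 0.34, adjusted p = 0.00111). The 1 h arrays of both genes stood far above the 6 h arrays. Tnf, which encodes tumour necrosis factor, had 5.03 and 4.99 at 6 h, against 8.08 and 7.0 at 1 h. Ptgs2, the inducible cyclooxygenase, had 5.57 and 5.58 at 6 h, against 7.72 and 7.46 at 1 h. Rel, an NF-kB subunit, had 5.45 and 5.90 at 6 h, against 7.91 and 7.79 at 1 h. These were at background on both 6 h arrays, and were at least 3.1-fold lower for Tnf (adjusted p = 0.00258), at least 3.21-fold for Ptgs2 (adjusted p = 0.000263) and at least 3.85-fold for Rel (adjusted p = 0.00152). Cxcl2, a neutrophil chemokine, had 5.17 and 5.19 at 6 h, against 6.94 and 6.82 at 1 h, and was at least 1.96-fold lower at 6 h (adjusted p = 0.000531). Tnf, Ptgs2, Rel and Cxcl2 passed the detection filter only through their 1 h arrays, so that their direction was fixed by that filter. With detection required on all 4 arrays, 24 members were measured, of which 12 were called lower and 2 higher (median difference -0.55).

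In the opposite direction, Il24, a cytokine of the interleukin 10 family, had 11.74 and 11.67 at 6 h, against 6.31 and 6.14 at 1 h, the steepest rise of the comparison at 5.48 ± 0.33 (adjusted p = 0.000194). Its mean log2 intensity was 6.06 in control medium, 6.22 at 1 h, 11.70 at 6 h and 7.71 at 24 h. Ppbp, a chemokine first described in platelets, had 12.20 and 12.21 at 6 h, against 8.63 and 9.0 at 1 h (3.39 ± 0.40, adjusted p = 0.00219). The 6 h arrays of both genes lay above both 1 h arrays by several log2 units. Of the haematopoietic and Kupffer cell markers, Cd14, a co-receptor for bacterial lipopolysaccharide, was the 1 detected on both arrays of each time, with 13.31 and 13.26 at 6 h, against 14.30 and 14.27 at 1 h (-0.99 ± 0.11, adjusted p = 0.00173). The summed raw signal of the 6 markers on the array was 12116 and 9116 intensity units at 6 h, against 22656 and 17352 at 1 h. This sum does not stand for the 6 markers as a set, because 4 of them were undetected on all 4 arrays. Ptprc, Adgre1, Lyz2 and Clec4f, which define blood cells and macrophages, were detected on none of the 4 arrays.

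NF-kB elements were looked for by the same search. Of the 13 members called lower that had a promoter sequence, 8 held one, as did 3 of the 8 members not called and 0 of the 1 called higher; the share was 14.2% among genes lower by at least 2-fold, 7.2% among genes higher by at least 2-fold, 6.42% of all genes tested and 4.51% of all promoters. Lif, Csf2, Tnf and Ptgs2, which were also called lower, had promoter sequences that held no such element. The promoters of Rel and Cxcl2, both at background at 6 h, are shown with the element in capitals. Each holds 2 overlapping matches, which start 92 and 91 bases before the start of Rel and 97 and 96 bases before that of Cxcl2.
Rel (chr11:23770920-23771219, minus strand): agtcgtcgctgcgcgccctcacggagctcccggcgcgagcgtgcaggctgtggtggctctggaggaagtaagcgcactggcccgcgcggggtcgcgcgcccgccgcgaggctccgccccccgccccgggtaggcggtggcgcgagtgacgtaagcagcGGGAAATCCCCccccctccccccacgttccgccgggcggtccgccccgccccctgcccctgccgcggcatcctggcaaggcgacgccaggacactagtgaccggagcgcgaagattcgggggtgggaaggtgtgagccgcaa
Cxcl2 (chr5:90903649-90903948, plus strand): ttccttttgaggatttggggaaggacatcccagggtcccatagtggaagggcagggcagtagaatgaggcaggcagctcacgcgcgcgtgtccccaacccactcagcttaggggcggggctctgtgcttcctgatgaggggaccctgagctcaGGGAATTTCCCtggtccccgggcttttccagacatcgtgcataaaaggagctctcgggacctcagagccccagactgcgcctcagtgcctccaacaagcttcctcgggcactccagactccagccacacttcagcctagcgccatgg
The list was drawn up partly from known NF-kB targets, so the share of its members with the element is a description.

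The circadian clock genes were lower at 6 h in nearly the whole list. The share called lower was 76.92%, against 9.67% of all genes tested. Of 13 measured, 10 were called lower and 0 higher (median difference -1.35), and 8 to 10 were called lower when any 1 array was left out. Per1 and Per2, the repressors at the core of the clock, had 7.47 and 7.18 at 6 h, against 9.94 and 10.08 at 1 h for Per1 and 8.65 and 8.56 at 6 h, against 11.35 and 11.20 at 1 h for Per2. Bhlhe40, a repressor that is also an immediate early gene, had 10.85 and 11.42 at 6 h, against 13.62 and 14.04 at 1 h. The 1 h arrays were the high ones in each of these. Dbp, an output factor of the clock, had 9.44 and 9.09 at 6 h, against 11.18 and 10.83 at 1 h. Nr1d1, the receptor Rev-erb alpha, had 7.30 and 7.40 at 6 h, against 8.93 and 8.99 at 1 h. No 6 h array of these genes reached a 1 h array. The differences were -2.68 ± 0.22 (adjusted p = 0.000659) for Per1, -2.67 ± 0.14 (adjusted p = 0.000116) for Per2, -2.69 ± 0.24 (adjusted p = 0.000825) for Bhlhe40, -1.74 ± 0.21 (adjusted p = 0.00219) for Dbp and -1.61 ± 0.13 (adjusted p = 0.000584) for Nr1d1. Mean log2 intensity of Per2 was 10.09 in control medium, 11.28 at 1 h, 8.60 at 6 h and 9.81 at 24 h, and that of Per1 was 8.38 in control medium, 10.01 at 1 h, 7.33 at 6 h and 8.23 at 24 h. The 6 h means of both were the lowest of the series.

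Cell cycle inhibitors and p53 targets were among the genes lower at 6 h. The share of their list called lower was 40%, against 9.67% of all genes tested. Of 25 measured genes of the list of G1 cyclins, Cdk inhibitors and p53 targets, 10 were called lower and 0 higher (median difference -0.45), and without HGF 1 h replicate b 1 was called higher. Cdkn1a, the Cdk inhibitor p21, had 12.07 and 12.12 at 6 h, against 13.56 and 13.49 at 1 h. Plk3, a stress-responsive polo-like kinase, had 7.91 and 8.65 at 6 h, against 11.32 and 11.74 at 1 h. Mdm2, the ubiquitin ligase of p53, had 12.64 and 12.80 at 6 h, against 13.56 and 13.56 at 1 h. In each the 6 h arrays were lower, with differences of -1.43 ± 0.13 (adjusted p = 0.000985) for Cdkn1a, -3.25 ± 0.33 (adjusted p = 0.00143) for Plk3 and -0.84 ± 0.13 (adjusted p = 0.00571) for Mdm2. Trp53inp1, which encodes a p53-induced protein, had 9.40 and 9.71 at 6 h, against 11.97 and 12.44 at 1 h (-2.65 ± 0.34, adjusted p = 0.00265). Cyclin D1, encoded by Ccnd1, was not called and was bright at both times, with 15.16 and 15.17 at 6 h, against 15.03 and 14.82 at 1 h (0.24 ± 0.14, adjusted p = 0.281). Among 19 apoptosis regulators, 5 (26.32%) were called lower, against 9.67% of all genes tested, and 2 (10.53%) higher, against 8.9%. The proapoptotic Bbc3 (Puma) and Pmaip1 (Noxa) had 8.21 and 8.85 at 6 h, against 9.92 and 10.35 at 1 h for Bbc3 and 7.50 and 7.70 at 6 h, against 8.56 and 8.69 at 1 h for Pmaip1, and the antiapoptotic Mcl1 had 13.09 and 13.12 at 6 h, against 14.01 and 14.11 at 1 h. All of these were lower at 6 h without overlap, with differences of -1.60 ± 0.23 (adjusted p = 0.00432) for Bbc3, -1.03 ± 0.15 (adjusted p = 0.00527) for Pmaip1 and -0.96 ± 0.12 (adjusted p = 0.00226) for Mcl1. Of the apoptosis list, 3 members were called lower without HGF 6 h replicate a or without HGF 1 h replicate a, and 0 were called higher when any 1 of the 4 arrays was left out (1 when an array of the other times was).

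Genes of the amino acid response, which the transcription factor ATF4 drives when amino acids are short, and of starvation were also among the genes lower at 6 h. In the list of the amino acid response and serine synthesis, 36% were called lower, against 9.67% of all genes tested. Of 25 measured genes of the amino acid response and serine synthesis, 9 were called lower and 0 higher (median difference -0.50), against 4 lower without HGF 6 h replicate a and likewise without HGF 1 h replicate b. Ddit3, which encodes the stress transcription factor CHOP, had 9.43 and 10.47 at 6 h, against 12.73 and 12.75 at 1 h (-2.79 ± 0.45, adjusted p = 0.00667). Chac1, a glutathione-degrading enzyme, had 11.50 and 12.93 at 6 h, against 14.39 and 14.57 at 1 h (-2.26 ± 0.40, adjusted p = 0.00967). Nupr1, a stress-induced chromatin protein, had 12.71 and 13.18 at 6 h, against 14.40 and 14.57 at 1 h (-1.54 ± 0.19, adjusted p = 0.00263). The 6 h arrays were below the 1 h arrays in each, and replicate a of 6 h was the lower of the pair. Of 18 genes linked to FoxO, the transcription factors active in starved cells, 5 (27.78%) were called lower and 2 (11.11%) higher. Over all genes tested the shares were 9.67% and 8.9%. Gabarapl1, an autophagy gene, had 9.21 and 9.55 at 6 h, against 10.73 and 10.92 at 1 h (-1.44 ± 0.17, adjusted p = 0.00196). Tsc22d3, a glucocorticoid-induced leucine zipper gene, had 9.74 and 9.88 at 6 h, against 11.56 and 11.13 at 1 h (-1.53 ± 0.20, adjusted p = 0.00302). In the blocked fit 8 of the 18 were called lower, and 2 to 6 were with any 1 array left out, the fewest without HGF 1 h replicate b, while 0 or 1 was called higher. Plin4, which encodes a lipid droplet protein and was on none of the lists, had 5.68 and 6.50 at 6 h, against 8.89 and 9.08 at 1 h (-2.90 ± 0.32, adjusted p = 0.00176). Plin4 passed the detection filter only through its 1 h arrays, at which it was high. Mean log2 intensity of Tsc22d3 was 12.18 in control medium, 11.34 at 1 h, 9.81 at 6 h and 11.66 at 24 h.

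Some mitotic genes were slightly lower at 6 h. Of 45 measured, 9 (20%) were called lower, against 9.67% of all genes tested, and 0 higher. The median difference was -0.27, and 42 of the 45 had a negative difference. Kif11, the kinesin that separates spindle poles, had 7.45 and 7.90 at 6 h, against 8.43 and 8.44 at 1 h (-0.76 ± 0.16, adjusted p = 0.0192). Melk, a cell cycle kinase, had 6.56 and 6.27 at 6 h, against 7.19 and 7.41 at 1 h (-0.89 ± 0.14, adjusted p = 0.00684). Spag5, a spindle protein, had 10.20 and 10.05 at 6 h, against 10.73 and 10.71 at 1 h (-0.59 ± 0.13, adjusted p = 0.0187). The 6 h arrays lay below the 1 h arrays by less than 1 log2 unit in their means. This count rested on few arrays: 3 genes were called lower without HGF 6 h replicate a or without HGF 6 h replicate b, and 1 without HGF 1 h replicate a or without HGF 1 h replicate b. Kif11 lost its call in a fit of the 4 arrays alone, without HGF 6 h replicate a and without either HGF 1 h array (adjusted p up to 0.0787), and Spag5 under 5 of the 19 alternatives, while Melk kept it throughout. The CHR element (TTTGAA on either strand), known in mitotic promoters, was held by 28 of 38 members of the list with a promoter sequence (73.7%), against 13.9% of all genes tested and 17.9% of all promoters. It was held by 5 of the 8 members called lower and 23 of the 30 not called. The promoter of Kif11 is shown with the element in capitals, 19 bases before the start.
Kif11 (chr19:37376132-37376431, plus strand): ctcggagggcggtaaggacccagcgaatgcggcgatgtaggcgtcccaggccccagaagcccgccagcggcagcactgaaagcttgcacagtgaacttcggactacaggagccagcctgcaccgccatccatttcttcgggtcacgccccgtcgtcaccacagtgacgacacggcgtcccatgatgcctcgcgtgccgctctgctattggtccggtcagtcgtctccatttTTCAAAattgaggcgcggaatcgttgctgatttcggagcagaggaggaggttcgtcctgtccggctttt
Of 46 DNA replication genes measured, 5 (10.87%) were called higher, against 8.9% of all genes tested, and 1 was called lower, and with the block 9 and 2. Their median difference was 0.09 and lay between -0.06 and 0.18 over the alternatives, so that it has no settled sign. Cdt1, which loads the replicative helicase, had 12.14 and 12.11 at 6 h, against 11.09 and 11.04 at 1 h (1.06 ± 0.17, adjusted p = 0.00717). When any 1 of the 4 arrays was left out, 1 or 2 replication genes were called higher and 0 lower.

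Matrix proteases and the genes of plasminogen activation were more often higher than lower at 6 h. Of 21 measured members, 8 (38.1%) were called higher, against 8.9% of all genes tested, and 2 (9.524%) lower, against 9.67% (median difference 0.45). Mmp3, the matrix metalloproteinase stromelysin 1, had 12.69 and 13.24 at 6 h, against 10.78 and 10.44 at 1 h. Mmp10, stromelysin 2, had 11.49 and 11.68 at 6 h, against 9.62 and 8.99 at 1 h. Both were high at 6 h. Timp1, an inhibitor of these proteases, had 13.29 and 13.58 at 6 h, against 11.46 and 11.65 at 1 h. Plau, the urokinase that activates plasminogen, had 7.09 and 6.86 at 6 h, against 5.73 and 5.98 at 1 h. The 6 h arrays were the higher ones in all of these, with no overlap and with differences of 2.35 ± 0.20 (adjusted p = 0.000812) for Mmp3, 2.28 ± 0.28 (adjusted p = 0.00234) for Mmp10, 1.88 ± 0.14 (adjusted p = 0.000531) for Timp1 and 1.11 ± 0.15 (adjusted p = 0.00293) for Plau. Serpinb2, an inhibitor of urokinase, was at background at 1 h, with 7.35 and 8.35 at 6 h, against 4.73 and 4.86 at 1 h, and was at least 4.05-fold higher at 6 h (adjusted p = 0.00106). Mean log2 intensity of Mmp3 was 7.88 in control medium, 10.61 at 1 h, 12.97 at 6 h and 6.0 at 24 h, and that of Mmp10 was 5.75 in control medium, 9.31 at 1 h, 11.59 at 6 h and 5.53 at 24 h. Mmp13, the collagenase of mice, was not called although its 6 h arrays lay above its 1 h arrays, with 14.51 and 14.76 at 6 h, against 13.38 and 13.42 at 1 h (1.23 ± 0.68, adjusted p = 0.248); in a fit of the 4 arrays alone it was called. Plaur, the urokinase receptor, was not called either, with 12.28 and 12.34 at 6 h, against 12.67 and 12.41 at 1 h (-0.23 ± 0.14, adjusted p = 0.299). The steepest fall of the list was Tmprss2, a membrane serine protease, with 5.98 and 5.52 at 6 h, against 9.80 and 8.20 at 1 h (-3.25 ± 0.66, adjusted p = 0.0164); without either HGF 6 h array, or without HGF 1 h replicate a, the call was lost (adjusted p up to 0.0798). Of the 2 members lower, 0 were called without HGF 6 h replicate a or without HGF 1 h replicate a and 1 without HGF 6 h replicate b. The median difference of the list was 0.62 in replicate a and 0.15 in replicate b. With detection required on all 4 arrays, 14 members were measured, of which 4 were called higher and 0 lower (median difference 0.14). Plau, Serpinb2 and Tmprss2 dropped out there, since each had passed the detection filter only through the time at which it was high. Serpinb2 was undetected on both 1 h arrays, so its direction was fixed by that filter.

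The promoters of the 3 metalloproteinases, whose genes lie near each other on chromosome 9, each held an AP-1 element (TGACTCA on either strand), the sequence that Fos and Jun dimers bind. It is shown in capitals and lies 46 bases before the start of Mmp3, 63 before that of Mmp10 and 35 before that of Mmp13.
Mmp3 (chr9:7445572-7445871, plus strand): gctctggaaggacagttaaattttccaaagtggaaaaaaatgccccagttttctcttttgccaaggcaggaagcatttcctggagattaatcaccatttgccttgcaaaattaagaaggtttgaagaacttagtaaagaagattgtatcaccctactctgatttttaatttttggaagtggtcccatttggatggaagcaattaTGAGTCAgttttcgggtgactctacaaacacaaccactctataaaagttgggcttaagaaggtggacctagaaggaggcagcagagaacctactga
Mmp10 (chr9:7502092-7502391, plus strand): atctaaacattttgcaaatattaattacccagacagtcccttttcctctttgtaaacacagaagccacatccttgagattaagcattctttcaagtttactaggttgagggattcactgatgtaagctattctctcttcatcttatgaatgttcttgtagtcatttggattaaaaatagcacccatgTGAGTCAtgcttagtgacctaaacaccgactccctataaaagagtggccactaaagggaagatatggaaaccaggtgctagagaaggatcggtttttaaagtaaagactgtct
Mmp13 (chr9:7272264-7272563, plus strand): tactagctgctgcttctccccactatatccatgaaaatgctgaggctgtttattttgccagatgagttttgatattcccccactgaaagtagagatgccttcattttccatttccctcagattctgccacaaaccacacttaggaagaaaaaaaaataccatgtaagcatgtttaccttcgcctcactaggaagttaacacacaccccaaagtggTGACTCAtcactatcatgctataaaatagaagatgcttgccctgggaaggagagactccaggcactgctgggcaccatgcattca
Of 14 protease genes with a promoter sequence, 4 held this element (28.6%), the other one being Plaur. The share was 11.2% of 125 genes higher by at least 2-fold, 7.11% of 225 genes lower by at least 2-fold, 4.9% of all genes tested and 5.2% of all promoters. The E-box (CACGTG), which clock factors and Myc bind, was held by 4.0% of the genes higher by at least 2-fold, 14.7% of those lower by at least 2-fold and 12.1% of all genes tested. The cyclic AMP response element (TGACGTCA) was held by 0.8%, 3.11% and 3.68% in the same order.

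**Figure D3:**
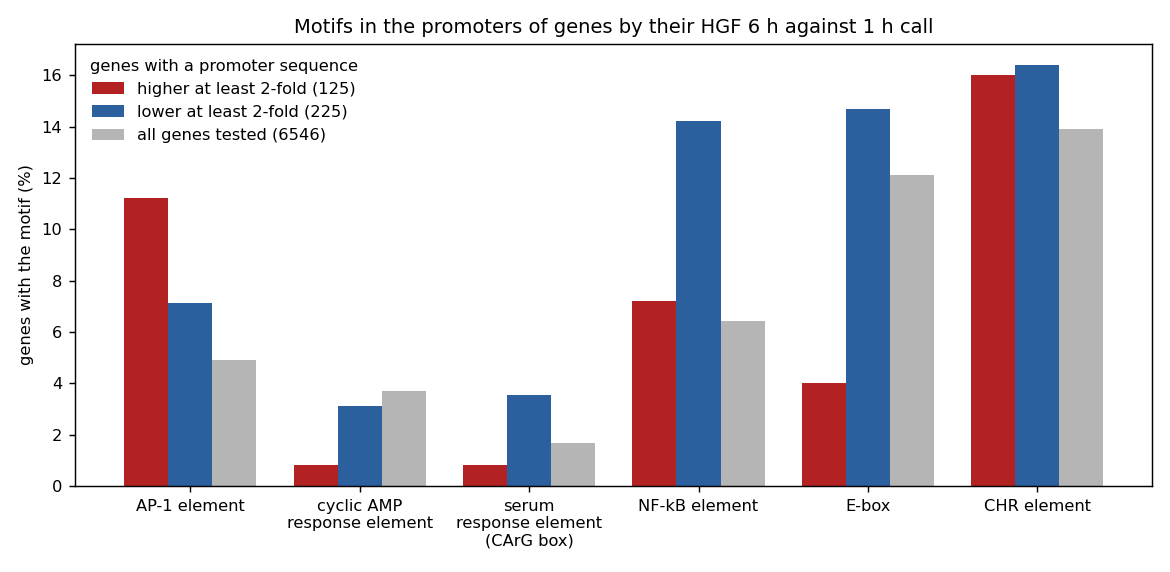
Share of genes with each motif in the 300 bases around the start (vertical axis, percent) for genes called higher by at least 2-fold at HGF 6 h than at HGF 1 h (125 with a promoter sequence), genes called lower by at least 2-fold (225) and all genes tested (6546). The AP-1 bar is highest for the genes higher at 6 h (11.2%), and the NF-kB, E-box and CArG bars for the genes lower at 6 h (14.2%, 14.7% and 3.56%).

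Growth factors, their receptors and secreted signals went both ways. Of 25 EGF receptor ligands, growth factors and receptors measured, 6 (24%) were called higher and 8 (32%) lower. The shares over all genes tested were 8.9% and 9.67%. Hbegf, a ligand of the EGF receptor, had 11.75 and 12.15 at 6 h, against 13.10 and 13.36 at 1 h. Ereg, another, had 5.80 and 5.76 at 6 h, against 7.44 and 7.07 at 1 h. Vegfa, the main angiogenic factor, had 11.67 and 12.30 at 6 h, against 13.60 and 13.99 at 1 h. All were lower at 6 h without overlap. The difference was -1.28 ± 0.19 (adjusted p = 0.00434) for Hbegf and -1.81 ± 0.31 (adjusted p = 0.00845) for Vegfa, and Ereg, at background on both 6 h arrays, was at least 2.55-fold lower (adjusted p = 0.00134). Vegfc, a lymphatic growth factor of the same family, had 11.88 and 11.48 at 6 h, against 10.39 and 10.68 at 1 h, and was higher at 6 h (1.14 ± 0.18, adjusted p = 0.00617). Igfbp3, an IGF-binding protein, was at background at 1 h, with 7.88 and 8.20 at 6 h, against 5.20 and 5.38 at 1 h. It was at least 4.63-fold higher at 6 h (adjusted p = 0.000116). Ereg and Igfbp3 passed the detection filter only through the time at which each was high, which fixed their direction. The receptor of HGF itself, Met, was not called, with 8.28 and 8.23 at 6 h, against 8.18 and 7.71 at 1 h (0.31 ± 0.23, adjusted p = 0.396). Mst1r, the related receptor Ron, was lower at 6 h, with 9.95 and 9.88 at 6 h, against 11.21 and 11.35 at 1 h (-1.37 ± 0.13, adjusted p = 0.000995). Mean log2 intensity of Mst1r was 8.37 in control medium, 11.28 at 1 h, 9.91 at 6 h and 8.59 at 24 h. Areg, a further EGF receptor ligand, was not detected on both arrays of either time and was not tested.

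Of 9 vasoactive and secreted peptides measured, 3 (33.33%) were called higher and 3 (33.33%) lower, against 8.9% and 9.67% of all genes tested. Edn1, which encodes the vasoconstrictor endothelin 1, had 9.34 and 8.99 at 6 h, against 5.43 and 6.34 at 1 h, with replicate a of 1 h at background. Its difference was 3.28 ± 0.28 (adjusted p = 0.000812), and its mean log2 intensity was 8.82 in control medium, 5.89 at 1 h, 9.16 at 6 h and 9.09 at 24 h, so that the 1 h arrays were the ones that stood apart. Ramp3, a subunit of adrenomedullin receptors that was on none of the lists, had 9.57 and 9.77 at 6 h, against 5.93 and 6.87 at 1 h (3.27 ± 0.36, adjusted p = 0.00179). Angpt2, a ligand of the endothelial receptor Tie2, had 7.36 and 7.36 at 6 h, against 9.38 and 9.18 at 1 h, and was lower at 6 h (-1.92 ± 0.17, adjusted p = 0.000939). The groups did not overlap in these genes.

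Adhesion and matrix genes were more often higher than lower at 6 h. The shares called higher were 24.14% (adhesion) and 38.89% (matrix), against 8.9% of all genes tested. The shares called lower were 6.897% and 11.11%, against 9.67%. Of 29 integrins and focal adhesion genes, 7 were called higher and 2 lower (median difference 0.16), with 2 to 4 higher and 0 or 1 lower when any 1 of the 4 arrays was left out. Itga6, the laminin-binding integrin alpha 6, had 9.28 and 9.78 at 6 h, against 7.35 and 7.57 at 1 h. Cd44, the hyaluronan receptor, had 12.87 and 12.66 at 6 h, against 11.34 and 11.50 at 1 h. Both genes had 6 h arrays above their 1 h arrays (differences 2.07 ± 0.18 for Itga6 with adjusted p = 0.000821, and 1.34 ± 0.14 for Cd44 with adjusted p = 0.00165). Itga2, a collagen-binding integrin subunit, had 8.58 and 8.06 at 6 h, against 8.04 and 7.01 at 1 h; the groups did not overlap, and it was not called (0.79 ± 0.38, adjusted p = 0.186) except in the blocked fit (adjusted p = 0.0112). Of 18 extracellular matrix genes, 7 were called higher and 2 lower (median difference 0.39). Col7a1, the collagen of anchoring fibrils, had 9.98 and 10.24 at 6 h, against 8.60 and 8.81 at 1 h (1.40 ± 0.14, adjusted p = 0.00116), and the basement membrane collagens Col18a1 and Col4a1 had 14.24 and 14.28 at 6 h, against 13.57 and 13.44 at 1 h for Col18a1 (0.75 ± 0.11, adjusted p = 0.00509) and 12.27 and 12.27 at 6 h, against 11.58 and 11.55 at 1 h for Col4a1 (0.70 ± 0.11, adjusted p = 0.00611). In these genes the 6 h arrays were the higher ones. With any 1 of the 4 arrays left out, 4 matrix genes were called higher and 0 or 1 lower. Scaling to a common median also left 4 integrin and 4 matrix genes called higher.

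Cytoskeletal, junction and mesenchymal genes showed a mixed pattern. Among actin cytoskeleton, SRF and YAP target genes, 22.22% were called higher and 14.81% lower, against 8.9% and 9.67% of all genes tested. Of 27 actin cytoskeleton, SRF and YAP target genes, 6 were called higher and 4 lower, with 1 to 3 higher when any 1 of the 4 arrays was left out. Ccn1, a matricellular protein and immediate early gene, had 10.23 and 10.32 at 6 h, against 12.57 and 12.69 at 1 h (-2.35 ± 0.12, adjusted p = 0.000116). Its 6 h arrays were the lower ones, without overlap. Ccn2, the relative of Ccn1, was not called (0.36 ± 0.18, adjusted p = 0.2). Of 20 junction and keratin genes, 3 (15%) were called higher and 2 (10%) lower, against 8.9% and 9.67% of all genes tested. Gja1, the gap junction protein connexin 43, had 14.06 and 14.01 at 6 h, against 12.75 and 12.82 at 1 h (1.25 ± 0.19, adjusted p = 0.00485). Tjp3, a tight junction scaffold, had 7.79 and 8.14 at 6 h, against 9.59 and 8.95 at 1 h (-1.30 ± 0.21, adjusted p = 0.00732). Gja1 was higher and Tjp3 lower at 6 h, and Cdh1, which encodes E-cadherin, was not called, with 12.25 and 12.40 at 6 h, against 12.59 and 12.54 at 1 h (-0.24 ± 0.12, adjusted p = 0.196). Of 10 mesenchymal transition genes, 3 (30%) were called higher and 1 (10%) lower, the latter near the 9.67% of all genes tested. Snai3, a Snail family factor, had 8.87 and 8.94 at 6 h, against 7.36 and 7.90 at 1 h (1.28 ± 0.18, adjusted p = 0.00422). Without HGF 6 h replicate a, 1 junction gene and 1 mesenchymal gene were called higher; the junction count was also 1 without HGF 1 h replicate b, and the mesenchymal count 1 without HGF 6 h replicate b or HGF 1 h replicate a. Sox9, a biliary and progenitor transcription factor, was lower at 6 h, with 7.46 and 7.25 at 6 h, against 9.25 and 8.81 at 1 h (-1.67 ± 0.32, adjusted p = 0.013); the call was lost without HGF 6 h replicate b or HGF 1 h replicate a (adjusted p up to 0.0715). Of 8 progenitor and biliary markers measured, Sox9 was the 1 called lower (12.5%, against 9.67% of all genes tested), and 7 were not called. Their median difference was -0.17. Of 19 TGF-beta and BMP response genes, 6 (31.58%) were called higher and 5 (26.32%) lower, against 8.9% and 9.67% of all genes tested. Ltbp1, which holds latent TGF-beta in the matrix, had 11.14 and 11.15 at 6 h, against 10.13 and 10.10 at 1 h (1.03 ± 0.11, adjusted p = 0.0017). Skil, an inhibitor of Smad signals, had 11.34 and 11.32 at 6 h, against 12.75 and 12.50 at 1 h (-1.30 ± 0.13, adjusted p = 0.00143). When any 1 of the 4 arrays was left out, 1 to 3 genes of this list were called higher and 2 to 4 lower.

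**Figure D4:**
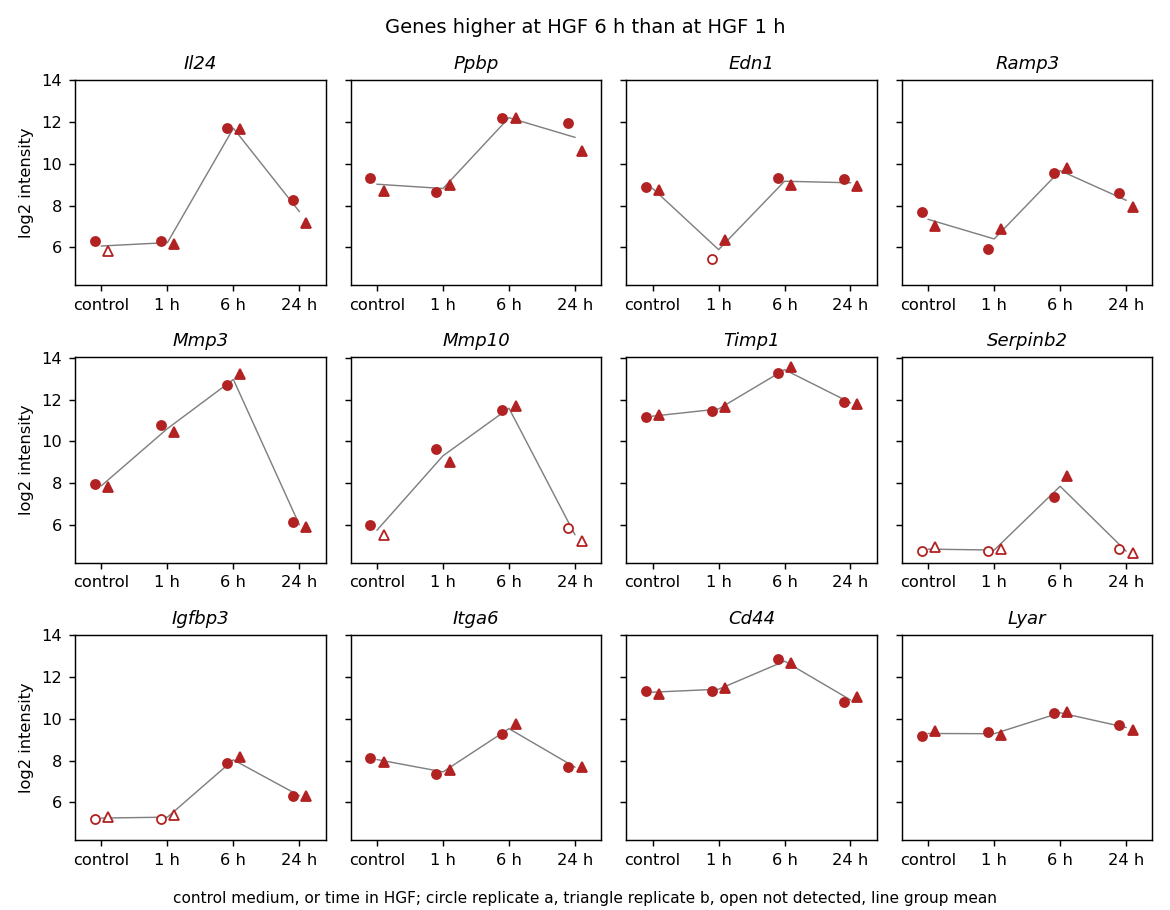
Log2 intensity (vertical axis) of 12 genes called higher at HGF 6 h than at HGF 1 h, in control medium and after 1, 6 and 24 h of HGF (horizontal axis); circles are replicate a, triangles replicate b, open symbols arrays on which the gene was not detected, and lines join the means of 2 arrays. Both 6 h arrays lie above both 1 h arrays in each gene, and the control arrays of Edn1 lie near its 6 h arrays.

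Genes of ribosome biogenesis, the nucleolar machinery that processes ribosomal RNA and assembles subunits, differed at 6 h by small amounts in 1 direction. Of 56 measured, 24 (42.86%) were called higher, against 8.9% of all genes tested, and 0 lower. The median difference was 0.44, and all 56 differences were positive, between 0.02 and 1.0. Lyar, a nucleolar growth factor, had 10.27 and 10.32 at 6 h, against 9.36 and 9.22 at 1 h (1.0 ± 0.14, adjusted p = 0.0035). Ncl, which encodes nucleolin, had 12.22 and 12.0 at 6 h, against 11.23 and 11.27 at 1 h (0.86 ± 0.13, adjusted p = 0.00607). Gar1 and Rrp9, proteins of small nucleolar RNA particles, had 13.70 and 13.73 at 6 h, against 12.90 and 13.0 at 1 h for Gar1 (0.77 ± 0.11, adjusted p = 0.00503) and 11.27 and 11.17 at 6 h, against 10.46 and 10.24 at 1 h for Rrp9 (0.88 ± 0.12, adjusted p = 0.00397). The arrays of the 2 times did not overlap in these genes, and the repeats of a time differed by less than the times did. The number called was 8 to 11 when any 1 of the 4 arrays was left out, 13 in a fit of the 4 arrays alone and 9 after scaling to a common median, while the median difference stayed between 0.40 and 0.48 over the alternatives. The ribosomal proteins themselves were not called: of 47 measured, limma called 0 higher and 0 lower, 2 had an unadjusted p under 0.05, and the median difference was 0.03 (-0.01 to 0.06 over the alternatives). With the block 2 of the 47 were called higher. Translation initiation factors and aminoacyl tRNA synthetases stood near the share of all genes tested (7.143% called higher, against 8.9%). Of 28 translation initiation factors and aminoacyl tRNA synthetases, 2 were called higher, with 0 to 2 over the alternatives that left out 1 array, and with the block 4 were called higher and 2 lower. Eif6, a factor that acts in maturation of the large ribosomal subunit, was one of these, with 14.38 and 14.39 at 6 h, against 13.85 and 13.68 at 1 h (0.62 ± 0.11, adjusted p = 0.0117), and it was not called after scaling to a common median or without HGF 6 h replicate a, HGF 6 h replicate b or HGF 1 h replicate b (adjusted p up to 0.0906).

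Chaperones of the endoplasmic reticulum and genes of the unfolded protein response were called in both directions. Of 20 measured, 6 (30%) were called higher and 3 (15%) lower, against 8.9% and 9.67% of all genes tested. Hyou1, a chaperone of the endoplasmic reticulum, had 9.63 and 9.65 at 6 h, against 8.46 and 8.28 at 1 h (1.27 ± 0.16, adjusted p = 0.00263). In contrast Herpud1, a factor of protein degradation there, had 12.83 and 13.56 at 6 h, against 15.23 and 15.08 at 1 h (-1.96 ± 0.24, adjusted p = 0.00226), and the cochaperone Dnajb9 had 10.36 and 10.46 at 6 h, against 11.73 and 11.60 at 1 h (-1.25 ± 0.19, adjusted p = 0.00564). At 6 h the arrays were higher in Hyou1 and lower in Herpud1 and Dnajb9, without overlap. The count of members called higher was 2 without HGF 6 h replicate a and likewise without HGF 1 h replicate b.

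In the lists of glycolysis, oxidative stress and interferon response, 17.39% to 19.05% of the measured genes were called lower, against 9.67% of all genes tested. Of 18 cholesterol synthesis genes, limma called 0 in either direction, although 16 had a negative difference, 5 were lower at an unadjusted p under 0.05 and the median difference was -0.34. With the block 4 of the 18 were called lower, and without HGF 6 h replicate b 3 were. Of 21 glycolysis and hypoxia genes, 4 were called lower and 0 higher (7 lower with the block, and 1 without HGF 6 h replicate a or without either HGF 1 h array). Of 23 genes of oxidative stress and glutathione, 4 were called lower and 0 higher, and 0 to 2 were called lower when any 1 of the 4 arrays was left out. Of 16 interferon-stimulated genes, 3 were called lower and 0 higher (5 lower with the block, 1 without HGF 6 h replicate a or HGF 1 h replicate a, and 0 with detection required on all 4 arrays). Ifit2, an interferon-induced antiviral gene, had 5.90 and 5.43 at 6 h, against 7.0 and 6.91 at 1 h. At background at 6 h, it was at least 2.07-fold lower (adjusted p = 0.00316). Ifit2 passed the detection filter only through its 1 h arrays, which fixed its direction. The housekeeping genes Gapdh and Actb had 15.01 and 15.23 at 6 h, against 15.02 and 15.04 at 1 h for Gapdh (0.09 ± 0.13, adjusted p = 0.693) and 15.60 and 15.61 at 6 h, against 15.47 and 15.30 at 1 h for Actb (0.22 ± 0.12, adjusted p = 0.239).

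**Figure D5:**
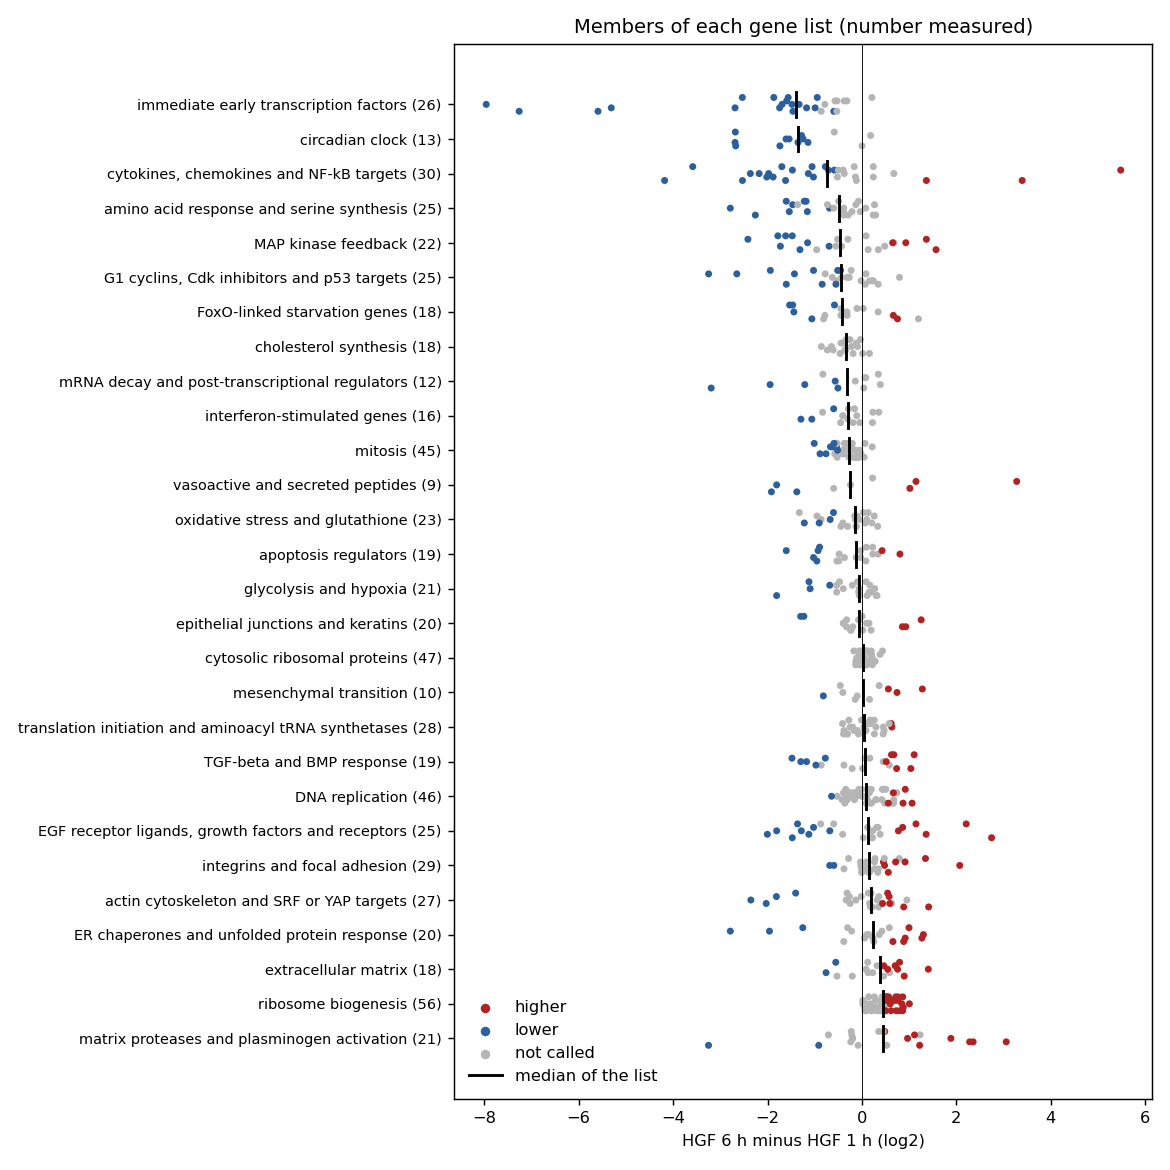
Difference HGF 6 h minus HGF 1 h (horizontal axis, log2) of each measured member of 28 gene lists (rows, with the number measured); points are genes, coloured as called higher, called lower or not called, and bars are the medians of the lists. Immediate early transcription factors (median -1.40) and clock genes (-1.35) lie to the left, and ribosome biogenesis (0.44) and matrix proteases (0.45) to the right. The median of the matrix proteases was 0.14 with detection required on all 4 arrays.

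Some of the steepest changes lay outside these lists. S100a7a, an antimicrobial S100 protein of epithelia, had 11.14 and 12.16 at 6 h, against 6.33 and 8.40 at 1 h (4.29 ± 0.67, adjusted p = 0.00607). Fxyd5, a regulator of the sodium pump that also lowers cell adhesion, had 11.60 and 12.07 at 6 h, against 8.89 and 9.41 at 1 h (2.69 ± 0.22, adjusted p = 0.000616). Wnt7a, a Wnt ligand, had 10.91 and 11.17 at 6 h, against 7.98 and 8.76 at 1 h (2.67 ± 0.30, adjusted p = 0.00187). Sox13, a Sox family transcription factor, had 8.69 and 8.49 at 6 h, against 6.15 and 6.04 at 1 h (2.49 ± 0.19, adjusted p = 0.000557). In these genes both 6 h arrays lay above both 1 h arrays, although the 1 h arrays of S100a7a were themselves far apart. Ghr, the growth hormone receptor, had 12.20 and 12.26 at 6 h, against 9.58 and 10.32 at 1 h (2.28 ± 0.24, adjusted p = 0.00153). Aqp8, a water channel of secretory epithelia, had 8.27 and 8.44 at 6 h, against 6.13 and 6.08 at 1 h (2.25 ± 0.20, adjusted p = 0.000926). Sprr2d, of a family of near-identical cornified envelope genes, had 9.17 and 10.59 at 6 h, against 7.20 and 7.72 at 1 h (2.42 ± 0.54, adjusted p = 0.0216); its probe may also detect its relatives, and its call was lost with an intensity trend and robust moderation in the fit, and without HGF 6 h replicate b or either HGF 1 h array (adjusted p up to 0.101).

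Detection itself changed for a part of the genes. Of the 7969 genes tested, 75 were detected on both 6 h arrays and neither 1 h array, and 45 of these were called higher. On both 1 h arrays and neither 6 h array, 142 were detected, of which 68 were called lower. These genes passed the detection filter only through the group in which they were high, so that their direction is fixed by that choice. Counting also genes detected on 1 array of the other time, 239 genes passed only through 6 h and 369 only through 1 h, by the probe used. Havcr2, the immune checkpoint receptor Tim-3, had 8.72 and 9.0 at 6 h, against 5.49 and 5.79 at 1 h, and was at least 8.19-fold higher at 6 h (adjusted p = 0.000626). Mrc1, the macrophage mannose receptor, had 7.62 and 7.70 at 6 h, against 5.13 and 5.61 at 1 h, and was at least 3.56-fold higher (adjusted p = 0.000688), while the blood cell markers Ptprc and Adgre1 were detected on no array of the 4. Cbx2, a Polycomb subunit, had 7.48 and 7.68 at 6 h, against 5.75 and 5.62 at 1 h, and was at least 3.38-fold higher (adjusted p = 0.00219). All of these were at background on both 1 h arrays. Casp4, an inflammatory caspase, had 5.60 and 5.83 at 6 h, against 8.82 and 8.60 at 1 h, and was at least 6.97-fold lower at 6 h (adjusted p = 0.000584). Fam107a, an actin-associated stress-response gene, had 5.84 and 5.82 at 6 h, against 9.29 and 8.17 at 1 h, and was at least 7.07-fold lower (adjusted p = 0.00267). Usp17la, of a family of near-identical deubiquitinase genes that a probe may not tell apart, had 4.88 and 5.06 at 6 h, against 7.75 and 7.86 at 1 h, and was at least 3.72-fold lower (adjusted p = 0.000584). These last were at background on both 6 h arrays.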

How the data were processed

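MLP-29 cells were measured on Illumina Mouse8_V2 bead arrays, which read 1 colour, as 4 groups of 2 arrays. Per the file headers, the deposited raw table holds a linear intensity per probe and array, neither background subtracted nor normalized, and a detection p-value that the authors exported beside it. The authors' second deposited table holds a normalized linear intensity; each column kept the order of its raw array (Spearman correlation 1) with a median of 129.8 or 129.9, and no source used here states how it was normalized. GenomeStudio 1.9.0 is named per the submitters' processing notes.

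The raw intensity was corrected in limma 3.58.1 under R 4.3.3 by normexp, with parameters taken from the detection p and an offset of 16. It was then taken to log2 and quantile normalized. With the offset, changes of dim genes are understated. Probes were named through the platform annotation: of 25697 probes, 23978 had 1 gene symbol, 0 several and 1719 none, and 23962 matched a current gene table. Of several kept probes of a gene, the one with the highest mean was used; 2158 genes had several, and in 0 of them were 2 probes called in opposite directions. One fit of group means over all 8 arrays (4 residual degrees of freedom) gave the contrast, with Benjamini-Hochberg adjustment over 7969 genes and a call at 0.05. A gene undetected on both arrays of a time got a lower bound, the brighter time's mean over a floor. The floor of an array is its lowest detected signal, or the gene's own signal where that is higher. With 2 arrays a group the number of arrays limits the precision.

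Per the labels' protocols the course was repeated, and a shared letter is taken, though not stated, to name 1 repeat throughout. The difference of replicate a minus b correlated across genes at 0.450 between HGF 6 h and HGF 1 h and at 0.198 to 0.450 over all pairs of groups. A blocked fit, with the letter as the block, stands beside those results whose call or count it altered (counts by over 1.5 times). Other alternatives were the 4 arrays alone, median scaling, the authors' table, no background correction, offset 50, other detection filters, the mean of a gene's probes, trend and robust moderation, and leaving out each array.

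The comparison, the gene lists and the genes named were chosen with earlier results of these data known. Named genes are the 15 steepest changes each way among called genes detected at both times, the 8 largest bounds each way, from each list at most 6 called members, taken by smallest adjusted p, and a fixed set of 40, some left out for length; 1 result is not reported here. Promoters and their coordinates are RefSeq's for GRCm38.p6. Tools for motifs and figures were Python 3.11.15, pandas 2.3.3 and matplotlib 3.10.9.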

Additional observations from a re-analysis of the deposited data

How the results depend on the processing

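Of 169 named genes that were called, 109 kept their call under every alternative that tested them (a stricter detection filter left some untested), 60 lost it under at least 1 and 0 changed direction; of the named genes not called, 4 were called under at least 1 (Mmp13, Itga2, Actb and Myc). In a fit of the HGF 6 h and HGF 1 h arrays alone, 392 genes were called higher and 493 lower, and with median scaling 268 and 470. At least 2-fold calls numbered 83 higher and 179 lower in the authors' table, and 86 and 180 without background correction. Leaving out 1 array gave 277 (without HGF 6 h replicate a) to 614 genes higher and 316 (without HGF 1 h replicate a) to 725 lower, and 135 to 160 higher and 217 to 270 lower by at least 2-fold; a lone array was then assumed to vary like the other groups. The paired fit, with the letter as a block, called 989 genes higher and 1054 lower. Without a detection filter, 526 and 588 of 16593 genes were called. Under every alternative, genes also called in the quantile-normalized values kept their direction. After median scaling 2 actin and SRF genes, 3 TGF-beta genes and 3 mitotic genes (lower) were called. Many genes lie near the detection limit, where bounds replace folds, and 2 arrays a time limit the precision.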

Other observations

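Of the 11644 probes kept, 667 carried no gene symbol in the annotation used. Tested with the rest, 40 of these 667 were called higher and 52 lower at HGF 6 h than at HGF 1 h. Of the 7969 named genes tested, 709 (8.9%) were called higher and 771 (9.67%) lower. In the current gene table the median genomic length was 22350 bases for genes higher by at least 2-fold, 18390 bases for genes lower by at least 2-fold and 21060 bases for all genes tested. Among 477 genes with several kept probes of which at least 1 was called, all probes were called the same way in 185.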
